A study of Mus musculus with 6 samples.

Results

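Cytochrome P450 (Cyp), UDP-glucuronosyltransferase (Ugt) and cytosolic sulfotransferase (Sult) genes were followed in mouse intestinal crypts after abdominal irradiation, with and without MPLA. The members were the genes whose symbol begins with Cyp, Ugt or Sult and a digit, leaving out the cholesterol synthesis gene Cyp51, that reached 1 FPKM (fragments per kilobase of transcript, scaled to a common total of mapped fragments) in at least 2 of the 6 libraries of the deposited table of the whole study. This rule kept 43 of 140 genes of the 3 families, out of 21878 genes in all. They were 29 of 98 Cyp, 9 of 21 Ugt and 5 of 21 Sult genes. In that table, the same level was met by 10405 genes in all. The members were thus chosen by their FPKM in these same libraries, so their presence at this level is a property of the choice.

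All mice were C57BL/6, with no other genotype named. The 2 Control libraries (replicates 2 and 3) came from crypts of mice that were not irradiated. The 2 AIR libraries (replicates 1 and 3) came from crypts taken 3 days after abdominal irradiation. The 2 AIR + MPLA libraries (replicates 1 and 3) came from crypts taken at the same time from irradiated mice that also received MPLA, monophosphoryl lipid A, a detoxified form of lipid A that activates Toll-like receptor 4. MPLA without irradiation is not analysed here, so an effect of MPLA alone cannot be told apart from its effect on irradiated crypts. The radiation dose, the dose and time of MPLA, the age and sex of the mice and the segment of the intestine were not given in the sources used here. Nothing states that the libraries of a group came from separate mice, so p-values measure the spread between these libraries, which may be technical. Each library was bulk RNA of a crypt preparation, in which fewer cells of a type and less RNA per cell cannot be told apart.

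P450 enzymes insert an oxygen atom into drugs, steroids, fatty acids and bile acid precursors, taking electrons from the reductase Por and cytochrome b5. Glucuronosyltransferases and sulfotransferases then join glucuronic acid, from UDP-glucuronic acid, or sulfate, from PAPS, to the product, and transporters carry the conjugates out of the cell. In the small intestine these enzymes act mainly in absorptive cells as a barrier to ingested chemicals, and their genes are induced through the nuclear receptors CAR (Nr1i3) and PXR (Nr1i2) and the aryl hydrocarbon receptor Ahr.

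FPKM summed to between 381669 and 492247 over all genes of a library, and 9842 to 10179 genes reached 1 FPKM. The depth in reads is unknown. The file of Control replicate 2 disagreed with the column for the same library in the table of the whole study, and its own file is used here. Members differed between the 2 Control libraries by a median of 0.409 on the log2 scale with its own file and by 0.172 with the column. Fold changes followed the GC content of transcripts over all genes tested. The tested genes were divided by GC content into 5 groups of 2067, and from the lowest to the highest group the median log2 fold went from 0.36 to -0.35 in AIR against Control and from -0.61 to 0.48 in AIR + MPLA against AIR. A fit with each library's GC trend removed is therefore given beside the results it changes, and what set the trend was not tested. The crypt label was checked against 5 stem cell markers (Lgr5, Olfm4, Ascl2, Smoc2 and Axin2), which summed to 787 and 612 FPKM in Control, 101 and 265 in AIR alone, and 340 and 231 in AIR + MPLA. The preparations also held differentiated cells, since 12 markers of absorptive enterocytes summed to 6619 and 7940 FPKM in Control, 18646 and 13930 in AIR alone, and 10701 and 13190 in AIR + MPLA.

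At the border of the rule, Cyp2j9 was listed in the study's table at 0.784 and 0.769 FPKM in Control, 0.895 and 1.42 in AIR alone, and 1.143 and 1.085 in AIR + MPLA, just inside. Sult1a1, just outside, was listed at 0.0651 and 0.0997 in Control, 0.699 and 1.34 in AIR alone, and 0.387 and 0.395 in AIR + MPLA. Ugt2b38 and Cyp4a14 also lay just outside, with highest table values of 0.946 and 0.926. Of the 43 members 36 were at or above 1 FPKM in all 6 libraries, and no member reached 1 FPKM in the libraries of 1 group alone. The other 7 were Cyp2c29, Cyp2d9, Cyp4a10, Cyp2d10, Cyp2j9, Cyp2u1 and Ugt1a9. Among the 97 family genes outside the rule 26 were listed at 0 throughout. They included Cyp24a1, which degrades active vitamin D. Cyp1b1, an Ahr target, did not exceed 0.0266 FPKM, and Cyp26b1, which degrades retinoic acid, did not exceed 0.078.

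A few members carried most of each family. In the following values, the libraries of a group are given in the order of their replicate numbers. The 29 Cyp members summed to 939.6 and 820.5 FPKM in Control, 1626 and 1068 in AIR alone, and 792 and 1079 in AIR + MPLA. Cyp3a13 and Cyp3a11, which oxidise steroids and many drugs, made up 30.99% and 26.8% of that sum in Control, 64.4% and 46.4% in AIR alone, and 31.4% and 31.5% in AIR + MPLA. Their share of the P450 FPKM was larger in both AIR libraries than in the other 4. The Ugt sums were 533 and 366, 378 and 461, and 403 and 458 FPKM in the 3 groups, which overlap, but the table puts Control replicate 2 at 335, so that Control then lies below both other groups. Ugt1a7c and Ugt2b34 together held 63.6% to 77.4% of them in every library. The 5 Sult members summed to 269.9 and 234 FPKM in Control, 669.8 and 571 in AIR alone, and 328 and 341 in AIR + MPLA. Sult1d1 alone gave 31.01% and 15.6% of the Sult sum in Control, 50.4% and 58.8% in AIR alone, and 23.2% and 21.6% in AIR + MPLA. With the study's table for Control replicate 2, the mean Control sums were 755.5 in place of 880.04 FPKM for Cyp and 207.4 in place of 251.96 for Sult, so AIR lay further above Control.

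**Figure D1:**
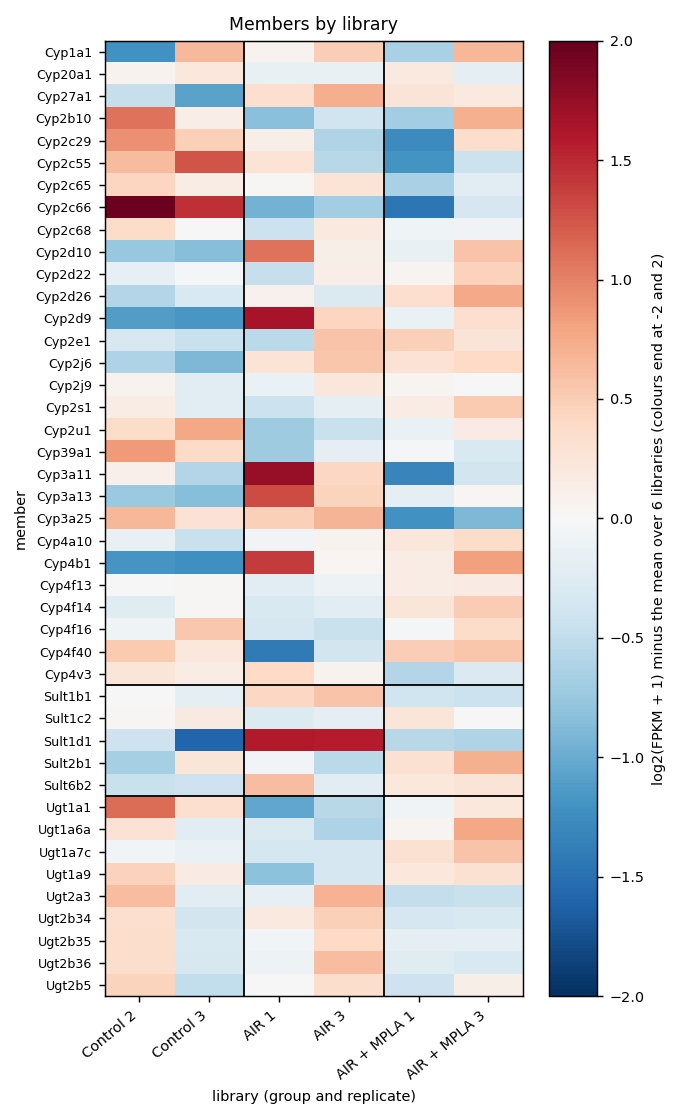
Level of the 43 members in each of the 6 libraries (columns, by group and replicate) as log2(FPKM + 1) minus the member's mean over the libraries, grouped into Cyp, Sult and Ugt. Sult1d1, Cyp3a13 and Cyp2d9 are highest in the 2 AIR libraries and Cyp2c66 is highest in the 2 Control libraries.

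**Figure D2:**
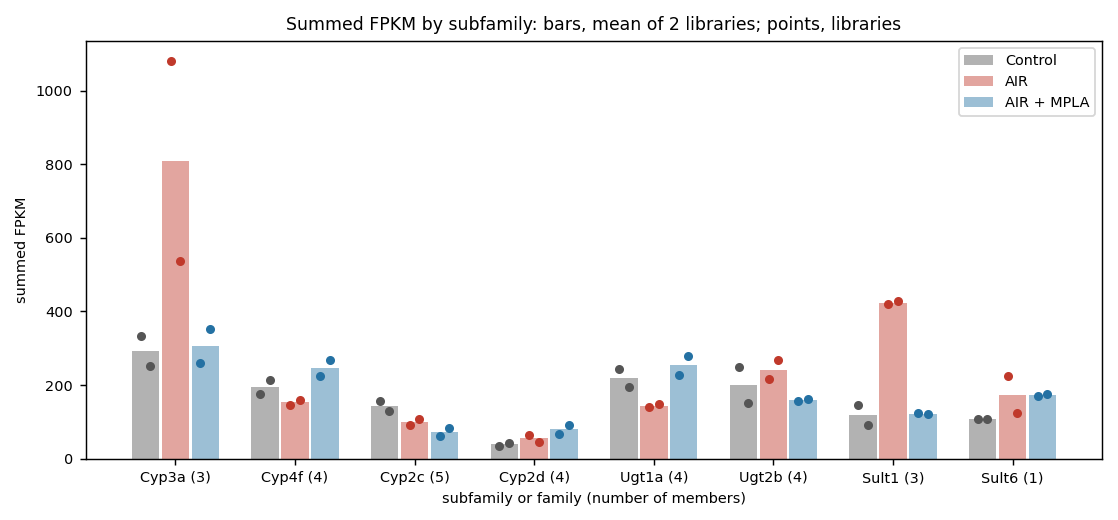
Summed FPKM of the members of a subfamily or family (number of members in brackets), with bars for the mean of 2 libraries and points for the libraries. Cyp3a and Sult1 stand highest in AIR, while Cyp4f and Ugt1a stand lowest there.

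Within a family, the subfamilies differed in which group stood highest. The 3 Cyp3a members summed to 332 and 251 FPKM in Control, 1082 and 537 in AIR alone, and 259 and 353 in AIR + MPLA, so that AIR did not overlap the other groups. The 4 Cyp4f members, relatives of the leukotriene B4 hydroxylase Cyp4f14, summed to 177 and 213, 147 and 159, and 224 and 267 FPKM, lowest in AIR. The 5 Cyp2c members summed to 158 and 129 FPKM in Control, 91.0 and 108 in AIR alone, and 61.0 and 84.3 in AIR + MPLA, with no overlap between the groups. This separation rests on the file of Control replicate 2, since with its table value of 91.99 FPKM Control and AIR overlap. Ugt1a was lowest in AIR, at 244 and 194, 139 and 148, and 229 and 278 FPKM. Ugt2b, at 248 and 149.7, 215 and 268, and 155 and 161 FPKM, was higher in AIR than in AIR + MPLA and overlapped between AIR and Control. With the table value of 136.6 FPKM for Control replicate 2, Ugt2b in AIR lay above both Control libraries. The sums are descriptions and were not tested.

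Many members lie in gene clusters. All coordinates are of GRCm38.p6. Chromosome 5 held 10 of the 43 members. Ugt2b34, Ugt2b35, Ugt2b36, Ugt2b5, Ugt2a3, Sult1b1 and Sult1d1 lay in that order between bases 86889770 and 87569006, Cyp3a13 lay at chr5:137892933-137925610, and Cyp3a11 and Cyp3a25 lay beyond it. Ugt1a9, Ugt1a7c, Ugt1a6a and Ugt1a1 share their 3′ exons and all end at base 88220002 of chromosome 1. The 5 Cyp2c members lay on chromosome 19, the 4 Cyp2d on chromosome 15 and the 4 Cyp4f on chromosome 17. Reads in shared sequence can be split between such copies in counting. Over the longest transcript, 69.3% of the 50-base words of Ugt1a7c also occurred in transcripts of other genes. So did 62.0% of Ugt1a9, 58.2% of Ugt1a1, 38.9% of Ugt1a6a and 41.7% of Ugt2b5. Among the Cyp genes, the shares were 43.3% for Cyp2c68, 40.5% for Cyp2d10, 30.5% for Cyp4a10 and 29.0% for Cyp2d9. They were 26.8% for Cyp3a25, 26.5% for Cyp4f16, 20.6% for Cyp2c65 and 20.4% for Cyp2c66. The values of these genes are uncertain in that respect, while Sult1d1, Sult1b1, Cyp3a13, Cyp3a11, Cyp27a1 and Cyp39a1 had no such shared word.

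The start regions of 4 members with large differences after irradiation are shown from RefSeq (GRCm38.p6), from 250 bases before to 50 bases after the start. Sult1d1 (chr5:87568957-87569256, minus strand) and Cyp3a13 (chr5:137921570-137921869, minus strand) were higher in AIR than in Control. Cyp2c66 (chr19:39113648-39113947, plus strand) and Ugt1a1 (chr1:88211709-88212008, plus strand) were lower. Capitals mark every match, on either strand, of 4 motifs: TATAAA (the TATA box), GTTAAT (a core of sites of the intestinal factor HNF1), AGGTCA (a nuclear receptor core) and GCGTG (the Ahr core).
Sult1d1: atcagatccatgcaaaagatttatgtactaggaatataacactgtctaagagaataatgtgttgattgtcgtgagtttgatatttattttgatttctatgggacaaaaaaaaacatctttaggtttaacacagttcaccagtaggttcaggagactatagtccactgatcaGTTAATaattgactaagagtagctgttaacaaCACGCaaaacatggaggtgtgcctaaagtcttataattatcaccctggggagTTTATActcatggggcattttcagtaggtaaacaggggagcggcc
Cyp3a13: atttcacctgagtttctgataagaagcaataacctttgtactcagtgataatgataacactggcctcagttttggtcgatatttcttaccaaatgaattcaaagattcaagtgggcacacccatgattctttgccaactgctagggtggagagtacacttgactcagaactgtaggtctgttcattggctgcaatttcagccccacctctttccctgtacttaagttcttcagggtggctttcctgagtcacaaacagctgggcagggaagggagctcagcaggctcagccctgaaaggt
Cyp2c66: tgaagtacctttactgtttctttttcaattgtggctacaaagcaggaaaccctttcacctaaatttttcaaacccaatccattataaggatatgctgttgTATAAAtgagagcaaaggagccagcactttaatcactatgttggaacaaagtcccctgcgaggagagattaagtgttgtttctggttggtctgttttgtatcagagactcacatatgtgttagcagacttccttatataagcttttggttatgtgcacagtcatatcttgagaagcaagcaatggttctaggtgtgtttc
Ugt1a1: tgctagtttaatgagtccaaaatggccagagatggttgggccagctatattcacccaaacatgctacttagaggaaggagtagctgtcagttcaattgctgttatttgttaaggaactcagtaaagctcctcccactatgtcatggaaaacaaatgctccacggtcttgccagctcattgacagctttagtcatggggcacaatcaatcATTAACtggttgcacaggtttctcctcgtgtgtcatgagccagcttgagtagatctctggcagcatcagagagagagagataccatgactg
Counted from the start, Sult1d1 had GTTAAT at -79, GCGTG at -47 and TATAAA at 6, Cyp2c66 had TATAAA at -150, Ugt1a1 had GTTAAT at -41, and Cyp3a13 had none. A start region was found for 39 of the 43 members, in 46 windows. GTTAAT occurred in 19.6% of these and in 7.1% of all 32851 windows of the same length, and TATAAA in 26.1% and 13.6%. AGGTCA occurred in 21.7% of the members' windows and 16.3% of all, and GCGTG in 26.1% and 32.4%. The matches describe the sequence alone.

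At 3 days after irradiation the crypts held more RNA of Sult1d1, Cyp3a13, Cyp4b1, Cyp2j6 and Cyp27a1, and less of Cyp2c66, Cyp4f40, Cyp39a1, Cyp2u1 and of Ugt1a1, which conjugates bilirubin. In AIR against Control, 14 of 43 members passed the threshold, 8 higher and 6 lower. The background was 26.7% of the 10415 genes tested, with 8.05% higher and 18.7% lower, and the members' 14 are 32.6% of 43, a share near the background. The median log2 fold was 0.05 over the members and -0.13 over all genes tested. The test was limma on log2(FPKM + 1) over all 6 libraries, with p-values adjusted over all genes tested and a threshold of 0.05. On this scale the fold of a gene near 1 FPKM is understated. The higher calls were 6 Cyp and 2 Sult genes and the lower calls 4 Cyp and 2 Ugt genes, the latter both of the Ugt1a locus.

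Among the sulfotransferases, Sult1d1, which in mice sulfates dopamine and other phenols, had the largest log2 fold of FPKM + 1 of the 43 members as tested. With the GC trend removed, Cyp2d9, Cyp4b1 and Cyp2d10 had larger positive folds (2.37, 2.05 and 1.61). Those of Cyp2c66 and Ugt1a1 were then larger in size but negative (-3.03 and -1.58). Sult1d1 was at 83.7 and 36.6 FPKM in Control and at 337 and 336 in AIR. Both AIR libraries lay far above both Control libraries, and above 76.0 and 73.5 in AIR + MPLA. The log2 fold was 2.58 ± 0.35 (SE, adjusted p = 0.00755), and 1.51 with the GC trend removed (adjusted p = 0.00435). Its transcript has a GC content of 32.9%, the lowest of the members. Its neighbour Sult1b1, which sulfates thyroid hormone and phenols, was at 60.4 and 52.8 FPKM in Control and 80.1 and 89.8 in AIR. It was called higher (log2 fold 0.58 ± 0.15, adjusted p = 0.0349), but with the GC trend removed the fold was -0.19 (adjusted p = 0.435), so its direction depended on that step. Sult6b2 was at 106 and 109 FPKM in Control and 224 and 124 in AIR, without overlap and without passing the threshold (log2 fold 0.63, adjusted p = 0.124), but it passed with the table value of 72.4 FPKM for Control replicate 2 (0.90, adjusted p = 0.0451). Sult2b1, which sulfates cholesterol, was at 17.4 and 33.5 FPKM in Control and 27.0 and 19.0 in AIR, within the Control range (log2 fold -0.09, adjusted p = 0.853). The table holds 33.7 FPKM of it for Control replicate 2, and with that value both AIR libraries lay below both Control libraries and it was called lower (-0.55, adjusted p = 0.0383). Sult1c2 stayed at or below 2.69 FPKM in all libraries (log2 fold -0.33, adjusted p = 0.168, and -0.37 with an adjusted p of 0.0322 with the table value). With the GC trend removed it was also called lower (-0.65, adjusted p = 0.035).

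Among drug- and steroid-oxidising P450 genes, the Cyp3a genes stood out by level. Cyp3a13 was at 130.4 and 121 FPKM in Control and 541 and 295 in AIR. Every AIR library lay above every Control library, and the log2 fold was 1.66 ± 0.29 (adjusted p = 0.012). Cyp3a11 was at 161 and 99.1 FPKM in Control and 506 and 200.2 in AIR. The groups did not overlap, but the 2 AIR libraries lay far apart and it did not pass (log2 fold 1.33 ± 0.50, adjusted p = 0.0903). With the study's table for Control replicate 2, where it stood at 55.0 FPKM, it passed (log2 fold 2.09, adjusted p = 0.0245). Cyp3a25 was at 41.3 and 31.7 FPKM in Control and 35.9 and 41.5 in AIR, which overlap (log2 fold 0.09, adjusted p = 0.746). With its table value of 21.8 FPKM they did not, and it was called higher (0.54, adjusted p = 0.0424). Cyp2b10, a CAR target, was at 113 and 57.9 FPKM in Control and 29.2 and 39.6 in AIR (log2 fold -1.23 ± 0.49, adjusted p = 0.103). With its table value of 42.2 FPKM for Control replicate 2 the fold was -0.53 (adjusted p = 0.381). Cyp1a1, the standard Ahr target, was at 6.17 and 24.8 FPKM in Control and 16.3 and 22.2 in AIR, so the AIR values lay inside the Control range (log2 fold 0.56, adjusted p = 0.527). With its table value of 24.1 FPKM for Control replicate 2, both AIR libraries lay below both Control libraries and the fold was -0.35 (adjusted p = 0.519), so the sign depended on which value was used.

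Fatty acid and arachidonate P450 genes divided. Cyp4b1, a fatty acid hydroxylase, rose from 13.03 and 12.6 FPKM in Control to 82.7 and 31.5 in AIR (log2 fold 1.92 ± 0.43, adjusted p = 0.0218). Cyp2j6, an arachidonate epoxygenase, rose from 10.5 and 8.43 to 20.3 and 24.8 FPKM (1.17 ± 0.17, adjusted p = 0.00896). In contrast, Cyp2c66, an intestinal arachidonate oxygenase, fell from 34.4 and 24.1 to 3.72 and 4.60 FPKM. Its log2 fold of -2.54 ± 0.36 (adjusted p = 0.00836) was the most negative of the members, and its neighbour Cyp2c65, at 89.3 and 73.2 against 67.4 and 80.3 FPKM, overlapped between the groups. The other Cyp2c members had log2 folds of -0.30 (Cyp2c68), -0.93 (Cyp2c29) and -1.09 (Cyp2c55), and none of them passed. With the table values the folds of Cyp2c68 and Cyp2c29 were -0.01 and -0.13. With the file of Control replicate 2 and the GC trend removed, Cyp2c68 was called lower (-0.72, adjusted p = 0.0263). Cyp4f40 fell from 25.2 and 19.9 to 5.80 and 13.03 FPKM (-1.26 ± 0.32, adjusted p = 0.0313). With the GC trend removed it had a log2 fold of -1.08 and an adjusted p of 0.0565. Cyp4f14 was at 112 and 135 FPKM in Control and 108 and 115 in AIR and Cyp4f16 at 31.8 and 49.95 against 26.7 and 24.6, neither of them called. With its table value of 50.6 FPKM for Control replicate 2, Cyp4f16 was called lower (log2 fold -0.95, adjusted p = 0.000961 in place of -0.62 and 0.101). Cyp2u1, a long-chain fatty acid hydroxylase, fell from 1.51 and 2.31 to 0.183 and 0.423 FPKM (-1.15 ± 0.21, adjusted p = 0.0128).

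The sterol hydroxylases went opposite ways. Cyp27a1, the mitochondrial sterol hydroxylase of the acidic route to bile acids, rose from 12.2 and 7.64 to 21.9 and 29.1 FPKM (log2 fold 1.30 ± 0.24, adjusted p = 0.013). Cyp39a1, which hydroxylates oxysterols, fell from 5.61 and 3.81 to 1.25 and 2.23 FPKM (-1.06 ± 0.25, adjusted p = 0.0239). Neither pair of groups overlapped.

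Cyp2d9 and Cyp2d10, known as liver genes in mice, were near 0 in Control and detected after irradiation. Cyp2d9 was at 0.0577 and 0.0264 FPKM in Control, 6.20 and 2.10 in AIR alone, and 1.102 and 1.92 in AIR + MPLA, and Cyp2d10 at 0.209 and 0.135, 3.35 and 1.22, and 0.840 and 2.02. Both were called in AIR against Control (log2 folds 2.18 ± 0.38 and 1.41 ± 0.36, adjusted p = 0.0119 and 0.0304). Hepatocyte markers were read beside them. Albumin (Alb) was at 0.107 and 0.163 FPKM in Control, 3.30 and 13.7 in AIR alone, and 12.8 and 14.2 in AIR + MPLA, and it rose in AIR (2.81 ± 0.50, adjusted p = 0.0125). The order of the 2 AIR libraries was the opposite, with Cyp2d9 and Cyp2d10 higher in replicate 1 and Alb higher in replicate 3. Cyp2e1, another liver-rich P450 gene, was at 1.84 and 1.58 FPKM in Control, 1.43 and 4.26 in AIR alone, and 3.91 and 3.21 in AIR + MPLA, with the higher AIR value in replicate 3. Of the 3 hepatocyte markers tested apart from Cyp2e1, Alb was called higher in AIR against Control, Cps1 lower and Ttr not called. Their median log2 fold was 0.21. In AIR + MPLA against AIR, Cps1 and Ttr were called higher. The markers Fgb, Serpina1a and Apoh were lower in level. Fgb was listed at 0 in both Control libraries and was at 0.256 and 0.857 FPKM in AIR alone and 0.568 and 0.851 in AIR + MPLA. Serpina1a was at 0.0441 and 0 FPKM in Control, 0.0967 and 0.39 in AIR alone, and 0.567 and 0.421 in AIR + MPLA. Apoh was at 0.252 and 0.272, 0.356 and 0.963, and 1.22 and 0.91 FPKM. Each of these 3 was higher in all 4 irradiated libraries than in both Control libraries. So were 9 of the 97 family genes outside the rule, listed at 0 in both Control libraries and above 0 in all 4 irradiated ones, at up to 0.926 FPKM. They include Cyp8b1, the sterol hydroxylase of bile acid synthesis, Cyp2c50 and Sult2a8. How many genes outside the families have this pattern was not counted, so the 9 have no background beside them. All their values lie below 1 FPKM. Over the list without Cyp2e1, the sum was 398 and 295 FPKM in Control, 107 and 157 in AIR alone, and 258 and 229 in AIR + MPLA, most of it from Cps1, which crypt cells also express. The part of liver RNA in these values was not tested.

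Among the glucuronosyltransferases, both calls were Ugt1a genes and both were lower. Ugt1a1 fell from 93.1 and 53.5 FPKM in Control to 20.0 and 28.4 in AIR (log2 fold -1.53 ± 0.29, adjusted p = 0.0142). Ugt1a9, which conjugates phenols, fell from 2.99 and 2.25 to 0.642 and 1.29 FPKM (-0.90 ± 0.21, adjusted p = 0.0248). Ugt1a7c, the most abundant Ugt1a member, was at 141 and 134 FPKM in Control and 115 and 116 in AIR, without overlap but not called (-0.25 ± 0.17, adjusted p = 0.291). Ugt2b34, at 198 and 120.0 FPKM in Control and 178 and 216 in AIR, and Ugt2a3, at 41.3 and 22.7 against 23.6 and 43.9, overlapped between the groups. With the table values of 109 and 20.1 FPKM for Control replicate 2 neither gene overlapped, and Ugt2b34 was called higher (log2 fold 0.77, adjusted p = 0.00155, in place of 0.35 and 0.336). With the file of Control replicate 2 and the GC trend removed, the fold of Ugt2b34 was -0.31 (adjusted p = 0.159), so its sign depended on that step. Ugt2b35 had a log2 fold of 0.15 (adjusted p = 0.67) as tested and of -0.47 (adjusted p = 0.0457) with the GC trend removed. With the table value of Control replicate 2 it was called higher (0.59, adjusted p = 0.0127), so that the calls went in opposite directions. Its transcript has a GC content of 39.3%.

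**Figure D3:**
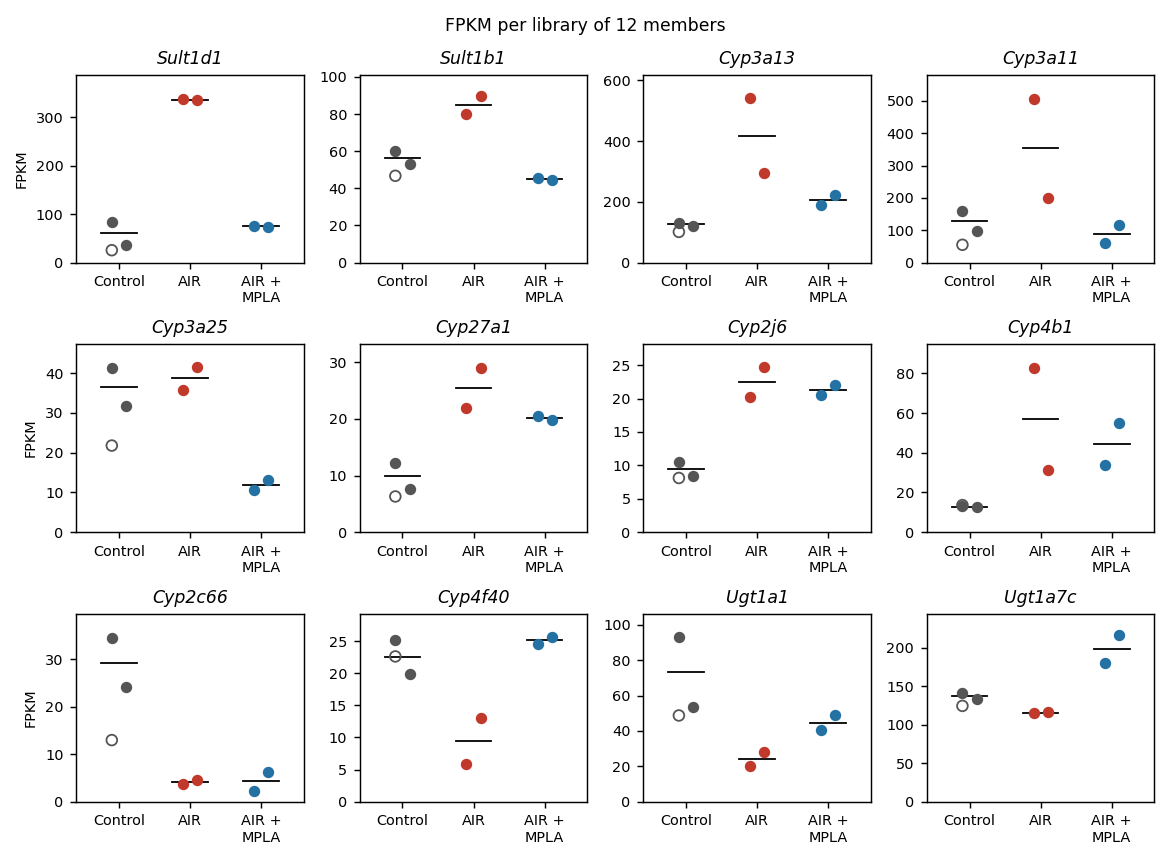
FPKM of 12 members in each library (filled points), with the mean of the 2 libraries of a group as a line and the table value of Control replicate 2 as an open point. Sult1d1 and Cyp3a13 are highest in AIR, Cyp2c66 is highest in Control, and Cyp3a25 is lowest in AIR + MPLA.

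Without AIR replicate 1 0 of the 14 calls in AIR against Control remained in limma, with 16 members at an unadjusted p under 0.05, and over all genes 49 were then higher and 75 lower. Without Control replicate 2 10 of them remained and without Control replicate 3 9 remained. The share of all genes at an unadjusted p under 0.05 was not counted in any fit, so such counts of members have no background. With the GC trend removed, 7 members were higher and 8 lower, which is 34.9% of them beside 28.6% of all genes tested. Of the 14 calls 12 remained, all but Sult1b1 and Cyp4f40. Cyp2c68, Sult1c2 and Ugt2b35 were also called lower in that fit. With the table values of Control replicate 2 all 14 calls remained, and Cyp3a11, Cyp3a25, Cyp4a10, Sult6b2, Ugt2b34, Ugt2b35 and Ugt2b5 were also called higher and Cyp4f16, Cyp20a1, Sult2b1 and Sult1c2 lower. The members called were then 58.1% of 43, beside 62.4% of all genes tested. Median-ratio scaling, which moved the median log2 fold of all genes from -0.13 by over 0.1, gave 1158 genes higher and 1184 lower in place of 838 and 1948, and the members' split stayed at 8 and 6.

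With MPLA, irradiated crypts had less RNA of the 3 Cyp3a genes and of Sult1d1 than crypts irradiated alone. The crypts with MPLA had more of Ugt1a7c, Ugt1a9, Cyp4f14 and Cyp4f40. With the GC trend removed, only the calls of Cyp3a25, Ugt1a7c and Ugt1a9 remained. In AIR + MPLA against AIR, 10 of 43 members passed, 4 higher and 6 lower. The background was 29.4% of the genes tested, 19.5% higher and 9.9% lower, and the members' 10 are 23.3% of 43. Their median log2 fold was -0.02, beside 0.15 over all genes tested. This comparison shares the AIR libraries with the one above, so a high AIR value enters both with opposite sign.

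Sult1d1 fell from 337 and 336 FPKM in AIR to 76.0 and 73.5 in AIR + MPLA (log2 fold -2.16 ± 0.35, adjusted p = 0.0154). With the GC trend removed the fold was -0.65 with an adjusted p of 0.0557. Sult1b1 fell from 80.1 and 89.8 to 45.3 and 44.2 FPKM (-0.91 ± 0.15, adjusted p = 0.0161), and with the GC trend removed its fold was 0.20 (adjusted p = 0.437). The 2 libraries of each group were close together in both genes, so that the size of the difference rests on how the GC trend is treated. Sult6b2, at 224 and 124 FPKM in AIR and 169 and 174 in AIR + MPLA, overlapped. Sult2b1 was at 27.0 and 19.0 against 35.1 and 46.5 FPKM, higher in both AIR + MPLA libraries (0.81 ± 0.32, adjusted p = 0.0979).

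All 3 Cyp3a members fell. Cyp3a25 went from 35.9 and 41.5 FPKM in AIR to 10.6 and 13.3 in AIR + MPLA (log2 fold -1.62 ± 0.19, adjusted p = 0.0153), and it stayed called with the GC trend removed (-0.82, adjusted p = 0.0234). Cyp3a11 went from 506 and 200.2 to 59.4 and 116 FPKM (-1.92 ± 0.50, adjusted p = 0.0326). Cyp3a13 went from 541 and 295 to 189 and 223 FPKM (-0.96 ± 0.29, adjusted p = 0.0464). For Cyp3a11 and Cyp3a13 the groups were apart, but the folds with the GC trend removed were -1.13 and -0.37 (adjusted p = 0.197 and 0.433). Cyp4v3, a fatty acid hydroxylase, fell from 47.9 and 38.1 to 23.8 and 29.4 FPKM (-0.67 ± 0.18, adjusted p = 0.0347), with a fold of -0.30 and an adjusted p of 0.285 after GC removal. The 4 genes have transcripts of 40.4% to 44.3% GC.

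The higher calls were Cyp4f40, Ugt1a9, Ugt1a7c and Cyp4f14. Cyp4f40 rose from 5.80 and 13.03 FPKM in AIR to 24.5 and 25.6 in AIR + MPLA (log2 fold 1.42 ± 0.32, adjusted p = 0.0245), and Cyp4f14 rose from 108 and 115 to 158 and 189 (0.63 ± 0.18, adjusted p = 0.0407). After GC removal these 2 genes had folds of 1.15 and 0.38 and adjusted p of 0.0636 and 0.112. Ugt1a7c rose from 115 and 116 to 180.4 and 217 FPKM (0.77 ± 0.17, adjusted p = 0.0221) and Ugt1a9 from 0.642 and 1.29 to 2.36 and 2.59 (0.84 ± 0.21, adjusted p = 0.0297). Both stayed called after GC removal, with folds of 1.09 and 1.079. The other Ugt1a members lay on the same side. Ugt1a1 was at 20.0 and 28.4 FPKM in AIR and 40.4 and 49.1 in AIR + MPLA (0.87 ± 0.29, adjusted p = 0.0603), and Ugt1a6a at 4.09 and 3.02 against 5.44 and 9.53 (0.87 ± 0.28, adjusted p = 0.0583). The 4 genes share their 3′ exons, so their values are not independent of each other. Ugt2b34 was at 178 and 216 FPKM in AIR and 123 and 126 in AIR + MPLA, the other way (-0.65 ± 0.26, adjusted p = 0.0925). After GC removal its fold was 0.31 (adjusted p = 0.186), so its direction depended on that step. Ugt2b35 had a log2 fold of -0.36 (adjusted p = 0.291), and of 0.54 (adjusted p = 0.0406) after GC removal.

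Several members called after irradiation were not called between AIR and AIR + MPLA. Cyp2j6 was at 20.3 and 24.8 FPKM in AIR and 20.5 and 22.1 in AIR + MPLA, and Cyp2c66 at 3.72 and 4.60 against 2.33 and 6.18. Cyp4b1 was at 82.7 and 31.5 FPKM in AIR and 33.98 and 54.8 in AIR + MPLA, and Cyp27a1 at 21.9 and 29.1 against 20.6 and 19.8. The log2 folds of these 4 genes lay between -0.31 and -0.07, with SE from 0.17 to 0.43, and the groups overlapped for all but Cyp27a1. Cyp2b10 was at 29.2 and 39.6 FPKM in AIR and at 32.2 and 86.8 in AIR + MPLA, which overlap.

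**Figure D4:**
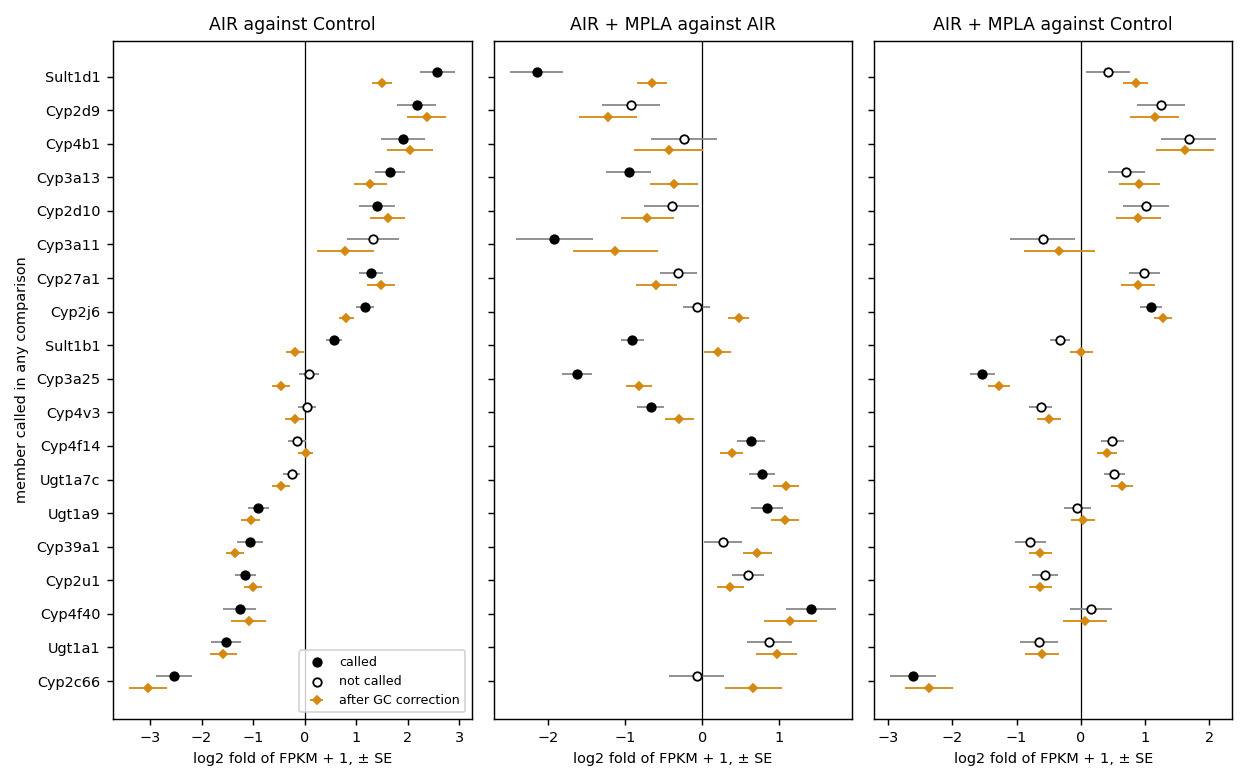
Log2 fold of FPKM + 1 with its SE for every member called in any comparison, in the 3 comparisons (filled, called; open, not called), with the fold after GC correction as diamonds. Sult1d1 lies at 2.58 in AIR against Control and at -2.16 in AIR + MPLA against AIR, and the diamonds lie nearer to 0 in both.

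Leaving out any of the 4 compared libraries left 0 of the 10 calls in limma and 0 calls over all genes, with 13 to 19 members at an unadjusted p under 0.05. That range of members has no share of all genes beside it. With the GC trend removed, 9 members were higher and 1 lower, 23.3% of them beside 17.5% of all genes tested. Of the 10 calls 3 remained (Cyp3a25, Ugt1a7c and Ugt1a9). The 7 gained, all higher, were Cyp2c68, Cyp39a1, Cyp2j9, Sult1c2, Ugt1a1, Ugt2b35 and Ugt1a6a. The table column of Control replicate 2 leaves the folds of this comparison as they are and enters only through the spread. With it all 10 calls remained and 9 more members were called higher, among them Ugt1a1, Ugt1a6a and Sult2b1, and 2 lower, Cyp2c65 and Ugt2b34, which made 48.8% of the members beside 55% of all genes tested. Upper-quartile scaling, which moved the median log2 fold of all genes from 0.15 to 0.00, gave 2 members higher and 7 lower.

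**Figure D5:**
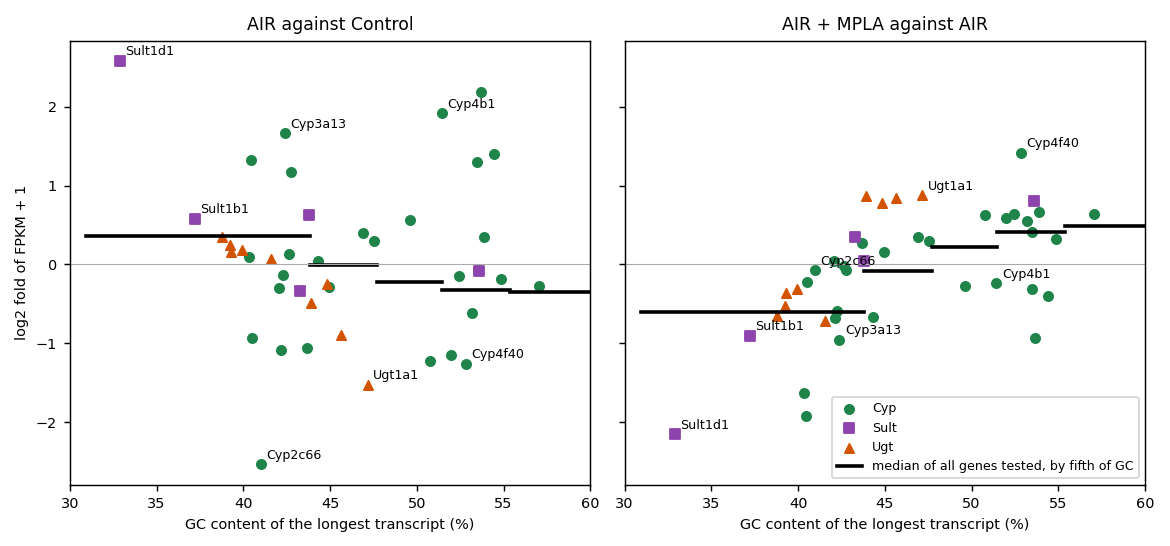
Log2 fold of the 43 members against the GC content of their longest transcript, in AIR against Control and AIR + MPLA against AIR, with black lines for the median of all genes tested in each of 5 groups of GC content (axis from 30% to 60%). The medians fall from 0.36 to -0.35 in AIR against Control and climb from -0.61 to 0.48 in AIR + MPLA against AIR, and 20 of the 43 members lie in the group of lowest GC.

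The GC trend bears on the members because 20 of the 43 lay in the lowest of the 5 groups of GC content (30.97% to 43.8%) and 11 in the fourth of the 5 groups. The members in the lowest group had a median log2 fold of 0.14 in AIR against Control and -0.45 in AIR + MPLA against AIR, and the 2067 genes of that group had 0.36 and -0.61. Cyp2c66, at 41.0% GC, was lower in AIR, against the trend, with a fold of -3.03 after its removal. Cyp4b1 (51.4% GC), Cyp2d9 (53.7%) and Cyp27a1 (53.5%) were higher in AIR, also against the trend, with folds of 2.05, 2.37 and 1.49 after its removal.

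Few members were called in AIR + MPLA against Control. In this comparison 3 of 43 members passed, 1 higher and 2 lower, which is 6.98% beside a background of 1.48% of the genes tested (0.643% higher and 0.835% lower). Cyp2c66 was at 34.4 and 24.1 FPKM in Control and 2.33 and 6.18 in AIR + MPLA (log2 fold -2.61 ± 0.36, adjusted p = 0.0272). Cyp3a25 was at 41.3 and 31.7 FPKM against 10.6 and 13.3 (-1.53 ± 0.19, adjusted p = 0.021). Cyp2j6 was at 10.5 and 8.43 FPKM against 20.5 and 22.1 (1.096 ± 0.17, adjusted p = 0.04). The values of the 2 groups were apart in all 3 genes, and also in many members that were not called, such as Cyp3a13 and Cyp4b1. In the study's table Control replicate 2 held 12.97 FPKM of Cyp2c66, and with that value the call was lost (-1.94, adjusted p = 0.0553).

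The other members were not called in this comparison. Sult1d1, at 83.7 and 36.6 FPKM in Control and 76.0 and 73.5 in AIR + MPLA, overlapped (log2 fold 0.43, adjusted p = 0.547), but with the table value of 25.6 FPKM for Control replicate 2 it was higher (1.26, adjusted p = 0.0038). Cyp3a13 was at 130.4 and 121 FPKM against 189 and 223 (0.71 ± 0.29, adjusted p = 0.295), and Cyp4b1 at 13.03 and 12.6 against 33.98 and 54.8 (1.68 ± 0.43, adjusted p = 0.128). Cyp27a1 (0.99, adjusted p = 0.106) and Cyp2d26 (adjusted p = 0.0862) also had both AIR + MPLA libraries above both Control libraries. With the table values of Control replicate 2 both were called higher (1.41 and 0.89, adjusted p = 0.00177 and 0.0199), and Cyp2d26 also with the GC trend removed (0.89, adjusted p = 0.0475). Cyp4a10 and Ugt1a7c were then called higher too and Cyp2u1 lower, so that 18.6% of the members were called beside 10.6% of all genes tested. Cyp2c55, which hydroxylates arachidonate, was at 7.42 and 11.97 FPKM in Control and 1.35 and 3.00 in AIR + MPLA (-1.77, adjusted p = 0.0791). Cyp4f40 had values of 24.5 and 25.6 FPKM beside 25.2 and 19.9 in Control. Of the 43 members 18 had an unadjusted p under 0.05 in limma, but the share of all genes at that level was not counted. Without AIR replicate 1, AIR replicate 3 or AIR + MPLA replicate 1 0 of the 3 calls remained at an adjusted p under 0.05, without AIR + MPLA replicate 3 only that of Cyp2c66 did, and without Control replicate 2 that of Cyp2c66 was lost. After GC removal 2 members were higher and 2 lower, 9.3% of them beside 2.97% of all genes tested, with all 3 calls kept, and upper-quartile scaling gave 0 higher and 2 lower.

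With the file of Control replicate 2, 19 members were called in at least 1 comparison and 24 in none. Of those not yet described, Cyp2d26 was at 31.6 and 38.8 FPKM in Control, 51.0 and 39.0 in AIR alone, and 61.3 and 82.3 in AIR + MPLA. Cyp2s1 was at 23.1 and 17.7, 15.1 and 18.1, and 23.1 and 30.02 FPKM. Both were highest in AIR + MPLA replicate 3. Cyp4f13, Cyp20a1, Cyp2d22 and Cyp4a10 stayed between 0.858 and 8.72 FPKM in the 6 libraries, and Ugt2b5 and Ugt2b36 between 2.57 and 8.76.

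Genes that supply or steer these enzymes were read as lists. Of 9 tested genes for partners of P450 enzymes, 1 was higher and 3 lower in AIR against Control (median log2 fold 0.17). In AIR + MPLA against AIR 3 were higher (median 0.46), among them Pgrmc2. Most of the list passes electrons to P450 enzymes, but Pgrmc1 and Pgrmc2 do not. Cyb5r3, cytochrome b5 reductase, fell from 107 and 113 FPKM in Control to 72.8 and 65.4 in AIR and was at 135 and 152 in AIR + MPLA (log2 folds -0.66 and then 1.04, adjusted p = 0.0266 and 0.0153). Fdxr, which feeds mitochondrial P450 enzymes such as Cyp27a1, fell by 0.75 on the log2 scale in AIR and rose by 0.81 with MPLA (adjusted p = 0.0147 and 0.0172). After GC removal the first of these calls of Cyb5r3 and the second of Fdxr were lost (adjusted p = 0.0516 and 0.0849). Por, the reductase of microsomal P450 enzymes, was at 47.4 and 56.3 FPKM in Control, 85.7 and 55.7 in AIR alone, and 85.4 and 117 in AIR + MPLA, and was not called.

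Of 10 tested genes for the supply of UDP-glucuronic acid and PAPS, 4 were higher and 0 lower in AIR against Control (median 0.57), and 1 was higher and 3 lower in AIR + MPLA against AIR (median 0.04). Ugdh, which makes UDP-glucuronic acid, rose from 85.4 and 73.0 to 155 and 138 FPKM in AIR (log2 fold 0.88, adjusted p = 0.0138). Ugp2, which makes its precursor UDP-glucose, rose by 1.17 on the log2 scale in AIR (adjusted p = 0.0101) and fell by 1.01 with MPLA (adjusted p = 0.0178), the latter becoming -0.07 after GC removal. Slc35d2, a nucleotide sugar transporter, rose by 1.18 in AIR (adjusted p = 0.00894). Papss2, a PAPS synthase, was at 216 and 225 FPKM in Control, 259 and 223 in AIR alone, and 441 and 416 in AIR + MPLA. It rose with MPLA (0.83, adjusted p = 0.0204), also after GC removal (1.05). Of 5 tested genes for arylsulfatases and beta-glucuronidase, 1 was lower in AIR against Control and 3 were higher in AIR + MPLA against AIR. Arsb fell by 1.44 on the log2 scale in AIR (adjusted p = 0.00546) and rose by 0.71 with MPLA (adjusted p = 0.0261).

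Of 21 tested receptors that sense xenobiotics and sterols, 3 were higher and 6 lower in AIR against Control (median -0.25), 5 were higher and 1 lower in AIR + MPLA against AIR (median 0.20), and 1 was higher in AIR + MPLA against Control. Nr1i3 (CAR) was at 13.8 and 9.42 FPKM in Control, 22.3 and 29.0 in AIR alone, and 14.9 and 15.1 in AIR + MPLA. It rose in AIR (log2 fold 1.09, adjusted p = 0.0151) and fell with MPLA (-0.72, adjusted p = 0.0439), also after GC removal (1.27 and -0.997), while Cyp2b10 was not called in either comparison. Nr1h4, the bile acid receptor FXR, rose by 1.43 on the log2 scale in AIR (adjusted p = 0.00546) and was still higher in AIR + MPLA than in Control (1.05, adjusted p = 0.0365). Vdr, the vitamin D receptor, fell from 103 and 88.7 to 47.1 and 47.3 FPKM in AIR (-1.003, adjusted p = 0.00955), and Rxra, the partner of these receptors, fell by 0.72 and rose by 0.96 with MPLA (adjusted p = 0.0155 and 0.0153). Ahr itself was at 4.31 and 3.19, 3.46 and 3.25, and 3.04 and 2.84 FPKM. Of 5 Ahr targets outside the 3 families 1 was higher and 1 lower in AIR against Control, and 1 was lower in AIR + MPLA against AIR. Tiparp, which restrains Ahr, had log2 folds of 0.67 and -1.07 (adjusted p = 0.0455 and 0.018), and of 0.13 and -0.27 after GC removal, neither of these called.

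Of 18 tested drug and conjugate transporters, 3 were higher and 3 lower in AIR against Control and 4 were higher and 2 lower in AIR + MPLA against AIR. Slco2b1, an uptake carrier of steroid conjugates, fell from 19.7 and 14.9 to 4.41 and 7.92 FPKM in AIR and was at 16.02 and 16.8 in AIR + MPLA (log2 folds -1.39 and 1.33, adjusted p = 0.0133 and 0.0187). Abcg2, an exporter of sulfates, fell by 0.66 on the log2 scale with MPLA (adjusted p = 0.0265), and its fold was 0.26 after GC removal (adjusted p = 0.47). Of 37 other phase I enzymes 11 were higher and 4 lower in AIR against Control (median 0.26), 5 were higher and 2 lower in AIR + MPLA against AIR (median 0.19), and 3 were higher in AIR + MPLA against Control. Cbr3, a carbonyl reductase, rose from 2.02 and 3.43 to 28.1 and 16.5 FPKM in AIR (2.63, adjusted p = 0.00755) and stayed at 15.3 and 27.8 in AIR + MPLA (2.57 against Control, adjusted p = 0.0274). Ces2a, a carboxylesterase, fell from 53.0 and 83.0 to 10.7 and 15.6 FPKM in AIR (-2.27, adjusted p = 0.00836).

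The remaining lists were smaller. Of 6 other conjugating enzymes 1 was higher and 2 lower in AIR against Control and 2 were higher and 1 lower in AIR + MPLA against AIR, with Nat2, an N-acetyltransferase, at log2 folds of 1.47 and -1.34 (adjusted p = 0.00864 and 0.0154), the latter -0.42 after GC removal (adjusted p = 0.0911). Of 16 retinoid genes 4 were higher and 1 lower in both of these comparisons. Of 8 arachidonate oxygenases and related genes 1 was higher and 3 lower in AIR against Control, 2 were higher and 2 lower in AIR + MPLA against AIR, and 2 were lower in AIR + MPLA against Control. The 2 lower in AIR + MPLA than in Control were Alox5 and Alox5ap, which make leukotrienes. Alox5ap, a tuft cell marker, fell from 4.76 and 6.55 FPKM in Control to 0.538 and 0.546 in AIR (-2.10, adjusted p = 0.00453). All 4 tuft cell markers on the list, Alox5ap among them, were called lower in AIR against Control. Their sum, which includes Alox5ap, was 9.88 and 11.3 FPKM in Control, 1.23 and 0.822 in AIR alone, and 1.33 and 1.66 in AIR + MPLA. The part of tuft cells in the fall of Alox5ap was not tested.

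Markers of cell types were read beside the members. Of 12 absorptive enterocyte markers 4 were higher and 2 lower in AIR against Control and 3 were higher and 2 lower in AIR + MPLA against AIR. Their median log2 folds were 0.34 and 0.12. Their summed level was highest in the 2 AIR libraries, as was that of Cyp3a and Sult1, and all 5 stem cell markers were lower in AIR than in Control. Of 5 Paneth cell markers 3 were lower in AIR against Control (median log2 fold -1.83), and their sum was 4764 and 15362 FPKM in Control, 2132 and 2508 in AIR alone, and 4076 and 3072 in AIR + MPLA. Of 5 goblet cell markers 2 were lower in AIR against Control and 2 higher in AIR + MPLA against AIR, with sums of 1929 and 3130, 1997 and 1836, and 3211 and 3553 FPKM. Fibroblast and macrophage markers stayed below 1 FPKM each, as did 4 markers of steroid-producing cells. Markers of pancreatic acinar cells summed to at most 10.4 FPKM, and 3 markers of T cells to 58.9 and 82.9 FPKM in Control, 15.6 and 23.5 in AIR alone, and 10.3 and 13.4 in AIR + MPLA. The part of a change in cell types in the levels of the members was not tested.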

How the data were processed

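Libraries were made from total RNA of intestinal crypts with an Illumina TruSeq kit, per the labels' protocols. Trimmomatic, HISAT2, Cufflinks and HTSeq and the build GRCm38.p6 are named in the submitters' processing notes. No source used here gives their versions or whether counting used strand, and reads of overlapping antisense genes can therefore be mixed. The authors deposited values in FPKM for each gene, both in a file for each library and in a table of the whole study. The columns headed as counts in the single files held FPKM too. In 5 of 6 libraries the 2 sources were equal. Control replicate 2 differed, and its own file was used, with its table column as an alternative.

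The members, gene lists and tests were chosen with earlier results of these data known. Symbols turned into dates (27) were restored by gene ID. The 10415 genes that reached 1 FPKM in 2 or more of the 6 libraries were fitted on log2(FPKM + 1) with limma 3.58.1 in R 4.3.3. All 6 libraries entered with a mean for each group, leaving 3 residual degrees of freedom, and the variances were moderated with the trend and robust options. P-values are two-sided and adjusted by the Benjamini-Hochberg method over all genes tested, with a threshold of 0.05. The scripts were tested on simulated data. As reads per library are unknown, intervals for counting error are not given, and 2 libraries a group limit the precision.

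Alternatives were the table column of Control replicate 2, median-ratio and upper-quartile scaling, removal of each library's lowess trend (span 0.3) with the GC content of the longest GENCODE transcript (21114 genes with a value, all 43 members), no filter, a pseudocount of 0.1, a fit of the 4 compared libraries, leaving out each library, and the replicate number as a block in the fit of the irradiated libraries. The same block with the GC trend removed, and a block with crossed numbers, were chosen after seeing the data. Coordinates and start regions came from RefSeq for GRCm38.p6, and shared 50-base words from GENCODE transcripts. Tables and figures used Python 3.11.15, pandas 2.3.3 and matplotlib 3.10.9. Named were the 10 Cyp, 5 Ugt and 5 Sult members of highest mean FPKM, up to 8 called members in each direction, Cyp1a1, Cyp1b1, Cyp3a11, Cyp24a1, Cyp26b1, Cyp27a1 and Ugt1a1, up to 3 called genes of each list, and genes at the border of the level rule. Members outside this rule, among them Cyp2c55, Cyp2c68, Cyp2c29, Ugt1a6a and Cyp2e1, and Cyp8b1, Cyp2c50, Sult2a8, Por, Ahr, Alb, Fgb, Serpina1a and Apoh were named after their values were seen.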

Additional observations from a re-analysis of the deposited data

How the results depend on the processing

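In AIR against Control, the table values of Control replicate 2 gave 15 members higher and 10 lower, the same with the GC trend removed gave 13 lower, and no filter gave 5 and 3. In AIR + MPLA against AIR the table values gave 13 higher, upper-quartile scaling 2, the 4 compared libraries alone 11, no filter 1 higher and 3 lower, GC removal 9 and 1, and the table values with GC removal 13 and 3. In AIR + MPLA against Control the higher calls were 6 with the table values, 7 with these and GC removal, 2 with GC removal or a pseudocount of 0.1, and 0 with upper-quartile scaling; no filter and the 4 compared libraries alone gave 0 in each direction. The count of members with an unadjusted p under 0.05 in limma was 16 without the filter, with no count over all genes beside it. Leaving out 1 library at a time gave 0 to 7 higher and 0 to 6 lower after irradiation, 0 to 11 and 0 to 7 in AIR + MPLA against AIR, and 0 to 3 and 0 to 5 in AIR + MPLA against Control. The cause of these shifts was not tested.

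Whether libraries with the same replicate number are paired is not known. Deviations of same-numbered AIR and AIR + MPLA libraries from their group means had a correlation of -0.33 over genes. With 2 libraries a group this value cannot decide it. As a block the replicate numbers gave 7 members higher and 5 lower and kept 7 of 10 calls. With the GC trend removed as well the block gave 0 in each direction. In that fit 18 members had an unadjusted p under 0.05 in limma, with no count over all genes beside it. The crossed pairing as a block gave 12 higher and 13 lower.

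After GC removal the sign turned for Sult1b1 (-0.19 for AIR and Control, 0.20 for AIR + MPLA and AIR), for Ugt2b35 (-0.47 and 0.54, while the table values alone gave 0.59 after irradiation) and for Abcg2 (0.26 in AIR + MPLA against AIR). With the table values as well they were -0.40 and 0.21, -0.36 and 0.55, and 0.27, and with the replicate block and GC removal 0.21 for Sult1b1 and 0.26 for Abcg2. The sign also turned on GC removal for Ugt2b34 (-0.31 and 0.31), Ugt2b5 (-0.39 and 0.54) and Ugt2b36 (-0.38 and 0.38), among others. With the file of Control replicate 2, Ugt2b34, Ugt2b5 and Ugt2b36 were not called before or after that step. The mean Control sum was 755.5 FPKM for Cyp and 207.4 for Sult with the table values.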
